A study of Saccharomyces cerevisiae with 22 samples.

Results

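The hexose transporters and glucose sensors of budding yeast were taken as 10 genes by their systematic names: the transporters HXT1 (YHR094C), HXT2 (YMR011W), HXT3 (YDR345C), HXT4 (YHR092C), HXT5 (YHR096C), HXT6 (YDR343C) and HXT7 (YDR342C), the galactose permease GAL2 (YLR081W), and the sensors SNF3 (YDL194W) and RGT2 (YDL138W). All 10 were found among the 5919 entries of the polyA RNA data and the 18222 features of the total RNA data. The study profiled strains of Saccharomyces cerevisiae that differ in the number of ribosomal DNA (rDNA) repeats, the tandem genes for ribosomal RNA. Every strain carried the genotype MATa his3d1 lyp1d0 can1d::STE2pr-spHIS5, and each was sequenced once per assay. 10 strains were read in both assays: those with 118, 147 and 237 repeats (series CGY20), 72, 129 and 156 repeats (CGY24), 197, 208 and 224 repeats (CGY28) and 84 repeats (CGY29). The strains with 104 (CGY24) and 166 (CGY28) repeats were read in polyA RNA only, and the labels mark these 2 libraries as of low recovery. The labels state neither the growth medium nor the glucose level or stage of growth at harvest. Since there was 1 library per strain and assay, every error below comes from the spread between strains. That spread holds together the effects of strain background, culture, library preparation and read counting, and of array length wherever it was not fitted.

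Yeast takes up glucose by facilitated diffusion through hexose transporters of differing affinity. Snf3 and Rgt2 are transporter-like proteins of the plasma membrane that sense glucose instead of carrying it. Their signal leads, through the casein kinases Yck1 and Yck2 and the ubiquitin ligase subunit Grr1, to loss of Mth1 and Std1, after which the repressor Rgt1 leaves the HXT promoters. A second repressor, Mig1, acts when glucose is plentiful, and the Snf1 kinase removes it when glucose runs low. HXT1 and HXT3 encode low-affinity transporters of cells in ample glucose. HXT2, HXT4, HXT6 and HXT7 encode carriers of higher affinity that are known for their use at low glucose, HXT5 is known from slow growth and starvation, and GAL2 is induced by galactose.

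Sequence sets a limit on what can be read of this family, so the stretches that matter are shown first. In the reference genome R64 (the build called sacCer3 in the submitters' processing notes), the coding sequences of HXT6 (chromosome IV, 1159608 to 1161320, minus strand) and HXT7 (chromosome IV, 1154216 to 1155928, minus strand) are each 1713 bases long and differ at 3 positions, an identity of 99.8%. Counted from 1 at the A of the start codon, and with the HXT7 base first, the differences are C1632T, A1666G and C1677T. The first 1631 bases are identical. The coding stretches around the differences, with the differing bases in capitals, are these.
HXT7, chrIV:1154277-1154317: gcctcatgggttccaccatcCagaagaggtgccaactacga
HXT6, chrIV:1159669-1159709: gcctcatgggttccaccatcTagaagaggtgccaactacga
HXT7, chrIV:1154232-1154283: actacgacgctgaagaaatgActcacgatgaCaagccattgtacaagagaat
HXT6, chrIV:1159624-1159675: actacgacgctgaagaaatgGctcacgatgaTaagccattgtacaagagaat
Of all windows of 50 bases in the coding sequence of either gene, 95.1% also occur in another coding sequence of the genome. The same share was 14.9% for HXT3, 4.99% for HXT1, 4.05% for HXT5 and 2.50% for HXT4, and no window of HXT2, GAL2, SNF3 or RGT2 was shared. The next most alike pairs were HXT1 with HXT3 at 82.0% identity and HXT4 with HXT7 at 81.7%. The level of HXT6 or HXT7 alone is therefore uncertain wherever reads were divided between them. Their sum is given for the share of the family, the slopes on array length, the agreement of the assays and the series contrasts. Other values of HXT6 and HXT7, including the relations of HXT7 with other genes, are those of the single genes.

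The upstream regions were searched for the letters CGGANNA, a form of the Rgt1 motif, and for GCGGGG or GTGGGG, forms of the Mig1 motif. The search covered both strands of the 850 bases from 1000 to 151 bases before the start codon, and overlapping matches were counted separately. The Rgt1 letters occurred at least once in 61.7% of 6002 such regions and the Mig1 letters in 23.3%. HXT3 held 9 Rgt1 matches and HXT1 held 8, against a 95th percentile of 3 over all regions. HXT5 held 4, HXT2, HXT4, HXT6 and GAL2 held 3 each, HXT7 held 2, and none was found for SNF3 or RGT2. The Mig1 letters occurred 3 times at HXT2, 2 times at HXT4, HXT6 and HXT7, and once at HXT5, with no match at HXT1, HXT3, GAL2, SNF3 or RGT2. The 300 bases with the most matches are shown, in gene orientation, for the most abundant transporter (HXT3) and for the carriers that varied most between strains in polyA RNA (HXT4 and HXT7). Capitals mark the matches of either motif. A match is a description of letters and no evidence that a factor was bound.
HXT3, chrIV:1164899-1165198, minus strand: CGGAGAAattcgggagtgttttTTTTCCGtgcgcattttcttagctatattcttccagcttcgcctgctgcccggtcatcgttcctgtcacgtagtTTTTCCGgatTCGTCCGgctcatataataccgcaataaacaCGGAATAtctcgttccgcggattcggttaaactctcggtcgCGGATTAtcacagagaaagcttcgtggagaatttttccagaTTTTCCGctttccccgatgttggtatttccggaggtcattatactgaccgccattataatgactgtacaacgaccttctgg
HXT4, chrVIII:288978-289277, minus strand: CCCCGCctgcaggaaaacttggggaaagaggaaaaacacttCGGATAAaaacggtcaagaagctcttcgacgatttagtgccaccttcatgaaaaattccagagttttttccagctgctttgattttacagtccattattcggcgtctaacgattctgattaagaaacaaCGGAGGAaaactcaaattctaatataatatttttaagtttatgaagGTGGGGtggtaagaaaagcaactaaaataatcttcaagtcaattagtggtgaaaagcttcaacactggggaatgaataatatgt
HXT7, chrIV:1156353-1156652, minus strand: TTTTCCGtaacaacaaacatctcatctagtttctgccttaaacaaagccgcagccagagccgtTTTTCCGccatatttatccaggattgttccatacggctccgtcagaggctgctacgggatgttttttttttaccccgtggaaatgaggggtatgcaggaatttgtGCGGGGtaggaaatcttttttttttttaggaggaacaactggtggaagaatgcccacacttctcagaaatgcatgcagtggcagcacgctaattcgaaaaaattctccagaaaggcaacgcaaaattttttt
The HXT3 window holds 7 Rgt1 matches and no Mig1 match, the HXT4 window 2 of each, and the HXT7 window 2 Rgt1 matches and 1 Mig1 match.

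The deposited libraries matched their labelled cell type. The 7 genes specific to MATa cells were all present in polyA RNA, with means over the 10 strains from 32.4 TPM (transcript abundance scaled for length and for sequencing depth) for ASG7 to 8183 TPM for the pheromone gene MFA2. The genes specific to the other mating type were low, at 0.575 and 0.715 TPM for MF(ALPHA)1 and MF(ALPHA)2, 3.48 TPM for STE3 and 11.3 TPM for SAG1. LYP1 and CAN1, both deleted in the genotype, were listed at 0 TPM in every polyA library, whereas CAN1 had 24.19 to 35.2 normalised counts in total RNA. HIS3, for which the genotype names the allele his3d1, was at 86.0 to 102.6 TPM and at 16.7 to 42.0 normalised counts. Each total RNA library was recovered to between 6495626 and 7934346 reads, and 377986 to 465645 of them mapped to features other than rDNA. That depth gave the 10 genes between 1 read (GAL2) and 1837 reads (HXT3) summed over all 10 libraries.

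HXT3 and HXT1 were the most abundant of the 10 genes, and HXT5 and GAL2 the least. In bulk RNA, fewer cells that express a gene and less RNA per cell cannot be told apart. In polyA RNA, HXT3 averaged 248 ± 22.3 TPM (SD, n = 10 strains), HXT1 213 ± 13.0, HXT2 103 ± 6.15, HXT7 18.8 ± 8.31, the sensor RGT2 11.7 ± 0.816, HXT4 4.88 ± 1.71, the sensor SNF3 4.35 ± 0.537, HXT6 3.39 ± 1.02, HXT5 0.523 ± 0.161 and GAL2 0.348 ± 0.132. For comparison, the median mean level of all entries was 21.2 TPM. The order held in every strain for HXT1 above HXT2, HXT2 above HXT7, RGT2 above HXT4 and HXT6 above HXT5, and the ranges of these neighbours did not overlap. HXT3 exceeded HXT1 in 9 of 10 strains, the exception being the strain with 147 repeats, and HXT7 exceeded RGT2 in 8 of 10. HXT4 lay above SNF3 in 6 of 10 strains and SNF3 above HXT6 in 8 of 10, so the order of these 3 genes was not fixed across strains. In the normalised counts of total RNA, HXT3 exceeded HXT1 in 5 of 10 strains.

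**Figure D1:**
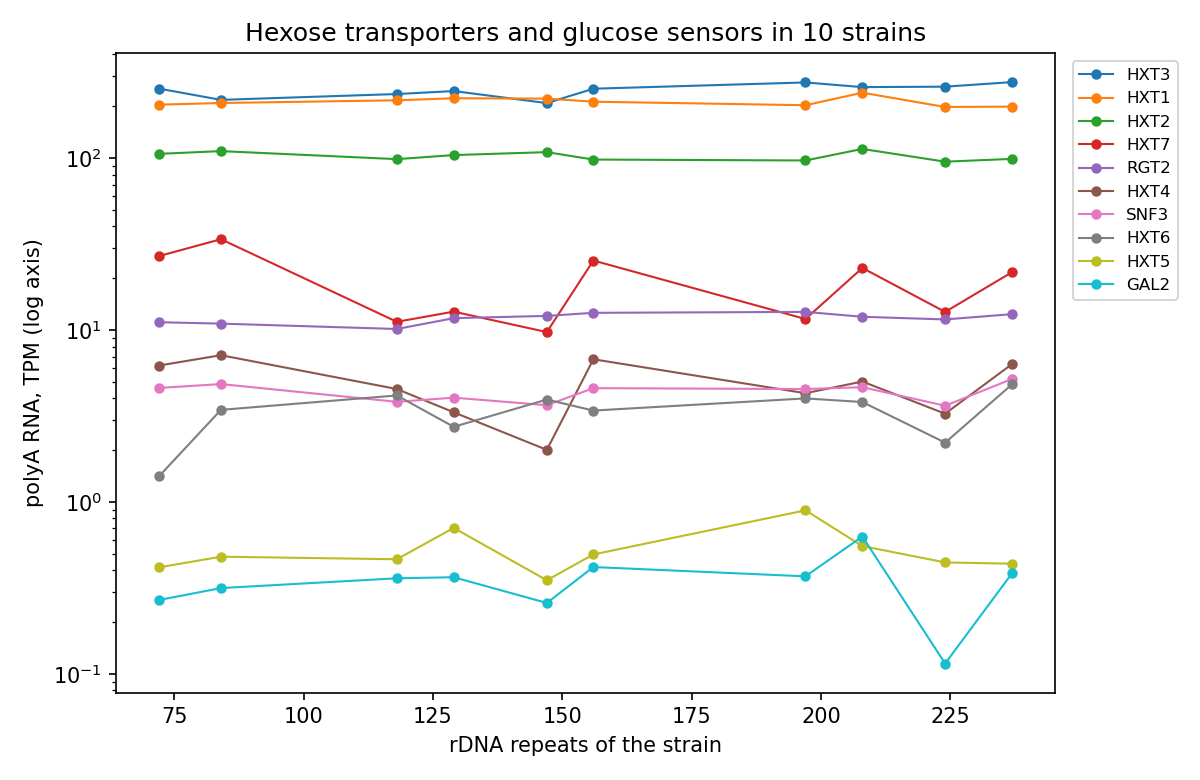
PolyA RNA level of the 10 genes (TPM, log axis) against the number of rDNA repeats of each strain, 1 point per library and 1 line per gene. HXT3, HXT1 and HXT2 stay near flat at 95.2 to 276 TPM, while HXT7 moves between 9.71 and 33.7 TPM.

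The 3 leading transporters carried nearly all of the family's RNA. HXT1 to HXT7 summed to between 554 TPM (147 repeats) and 643 TPM (208 repeats), and averaged 591 ± 24.4 TPM over strains (SD, n = 10). HXT1, HXT2 and HXT3 made up 92.3% to 97.1% of this sum in polyA RNA and 93.6% to 98.9% of the sum of normalised counts in total RNA. Per kilobase of coding sequence, total RNA gave HXT3 106 ± 12.8 normalised counts, HXT1 104 ± 11.5, HXT2 40.8 ± 5.87, RGT2 8.25 ± 1.33, HXT7 4.95 ± 3.28, SNF3 3.31 ± 1.80, HXT6 2.28 ± 1.29 and HXT4 1.57 ± 1.35 (SD, n = 10). HXT5 had 1 read in each of 2 total RNA libraries and GAL2 had 1 read in 1 library, so both were at the limit of this depth, and neither they nor HXT4 and HXT6 passed the filter on low counts there. In all, 8 of the 10 genes were tested in polyA RNA (not HXT5 and GAL2) and 6 in total RNA.

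HXT7 varied between strains more than nearly all genes tested. Its polyA levels, in order of array length from 72 to 237 repeats, were 26.9, 33.7, 11.1, 12.8, 9.71, 25.3, 11.6, 22.9, 12.7 and 21.7 TPM. The strains with 72, 84, 156, 208 and 237 repeats stood at 21.7 TPM or more and the other 5 at 12.8 TPM or less, and both sets hold short and long arrays. The low recovery libraries lay between the sets, at 19.4 TPM (104 repeats) and 16.8 TPM (166 repeats). The highest value was 3.47 times the lowest, and the SD of log2(TPM + 1) ranked 89th of 5542 genes. Total RNA of the same strains gave 9.90, 18.8, 14.0, 4.03, 2.93, 11.1, 4.15, 6.86, 1.04 and 12.03 normalised counts, from 1 to 21 reads per library. Total RNA did not keep the sets. The strain with 118 repeats, of the lower set, had 14.0 normalised counts, and that with 208, of the higher set, had 6.86. The strain with 84 repeats was highest in both assays. The lowest was the strain with 147 repeats in polyA RNA and the strain with 224 repeats in total RNA.

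HXT4, another carrier of higher affinity, had the second widest spread, with 6.20, 7.13, 4.53, 3.32, 2.01, 6.75, 4.28, 5.01, 3.26 and 6.35 TPM in the same order of strains. It was highest with 84 and lowest with 147 repeats, as HXT7 was. Its SD on the log2 scale ranked 139th and that of HXT6 197th of 5542 genes. HXT1 and HXT2 had among the smaller spreads. HXT1 ranged from 198 to 240 TPM (median 211) and HXT2 from 95.2 to 113 TPM (median 101), and only 12.5% and 11.96% of genes had a lower SD. Both were highest in the strain with 208 repeats and lowest in the strain with 224. HXT3 ranged from 209 TPM (147 repeats) to 276 TPM (237 repeats, median 253), with 44.5% of genes below its SD. The sensor SNF3 ranged from 3.62 to 5.19 TPM (median 4.56), with 53.1% of genes below its SD, and RGT2 from 10.1 to 12.7 TPM (median 11.8), with 17.7% below.

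The near-identical pair HXT6 and HXT7 made up between 2.46% (147 repeats) and 6.39% (84 repeats) of the summed HXT1 to HXT7 level in polyA RNA. In total RNA the share lay between 0.860% (224 repeats) and 5.79% (84 repeats). Within the pair, HXT6 was given 4.97% to 28.8% of the TPM and 12.5% to 75.0% of the normalised counts. HXT6 values were 1.41, 3.43, 4.16, 2.73, 3.93, 3.39, 3.996, 3.81, 2.21 and 4.84 TPM in order of array length, lowest in the strain with 72 repeats, where HXT7 was second highest. Across the 10 strains the levels of the pair gave r = -0.20 (permutation p = 0.588, adjusted p = 0.999) and rho -0.45 (permutation p = 0.193, adjusted p = 0.920), and r = -0.07 without the strains with 72 and 224 repeats.

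**Figure D2:**
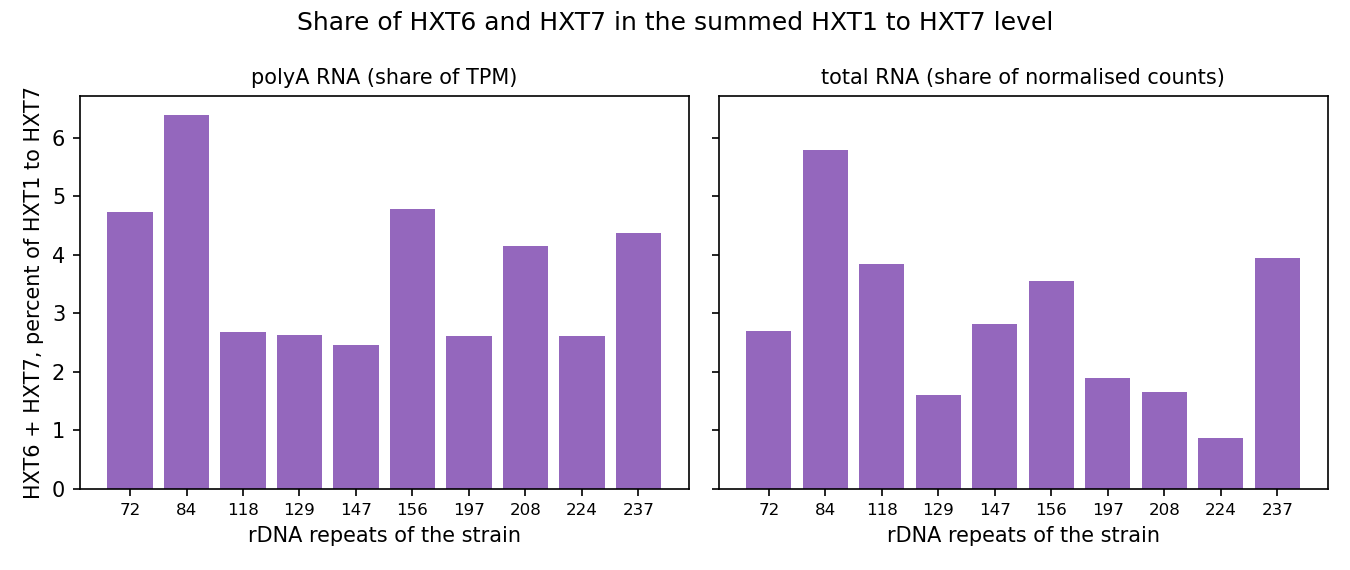
Bars give HXT6 plus HXT7 as a percentage of the summed HXT1 to HXT7 level in each strain, from TPM (left) and from normalised counts (right), ordered by rDNA repeats with 1 library per bar. The strain with 84 repeats is highest in both assays, at 6.39% and 5.79%.

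Whether a gene's pattern over strains recurred in a second library of the same strain was read from the correlation of both assays, with a two-sided test of 100000 permutations adjusted by Benjamini-Hochberg over 3662 genes. HXT3 gave r = 0.83 over 10 strains (permutation p = 0.00083, adjusted p = 0.0563) and a rank correlation of 0.95 (permutation p = 0.00013, adjusted p = 0.0394). No member passed the adjusted threshold by Pearson's r, which 1.15% of all genes did, and HXT3 passed by rank, as 0.41% of genes did. Without the 2 strains farthest from the median (84 and 147 repeats) the r of HXT3 was 0.75. Its total RNA values, in order of array length, were 195, 153, 164, 164, 157, 166, 197, 196, 212 and 203 normalised counts. The 4 strains of 197 or more repeats and the strain with 72 repeats stood at 195 or more, and the other 5 stood at 166 or less.

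HXT7 gave r = 0.66 (permutation p = 0.0374, adjusted p = 0.266) with a rank correlation of 0.50 (permutation p = 0.144, adjusted p = 0.555). Its r was 0.48 without the strains with 84 and 147 repeats. For the sum of HXT6 and HXT7, r was 0.60 (permutation p = 0.0688, not adjusted over genes) and rho 0.52 (permutation p = 0.134). HXT2 gave r = 0.51 (permutation p = 0.134, adjusted p = 0.449) and rho 0.47 (permutation p = 0.178). HXT1 gave r = 0.46 (permutation p = 0.188, adjusted p = 0.527) and rho 0.44 (permutation p = 0.208). The median r of all 3662 genes was 0.28, and 16.4% of genes had an unadjusted p under 0.05. The sensors had negative values: RGT2 r = -0.21 (permutation p = 0.564, adjusted p = 0.823) and SNF3 r = -0.46 (permutation p = 0.176, adjusted p = 0.512). SNF3 had 2 to 15 reads per total RNA library, and the part of counting error in its spread there was not tested. As values only, r was 0.48 for HXT4 and 0.23 for HXT6, which did not pass the total RNA filter.

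**Figure D3:**
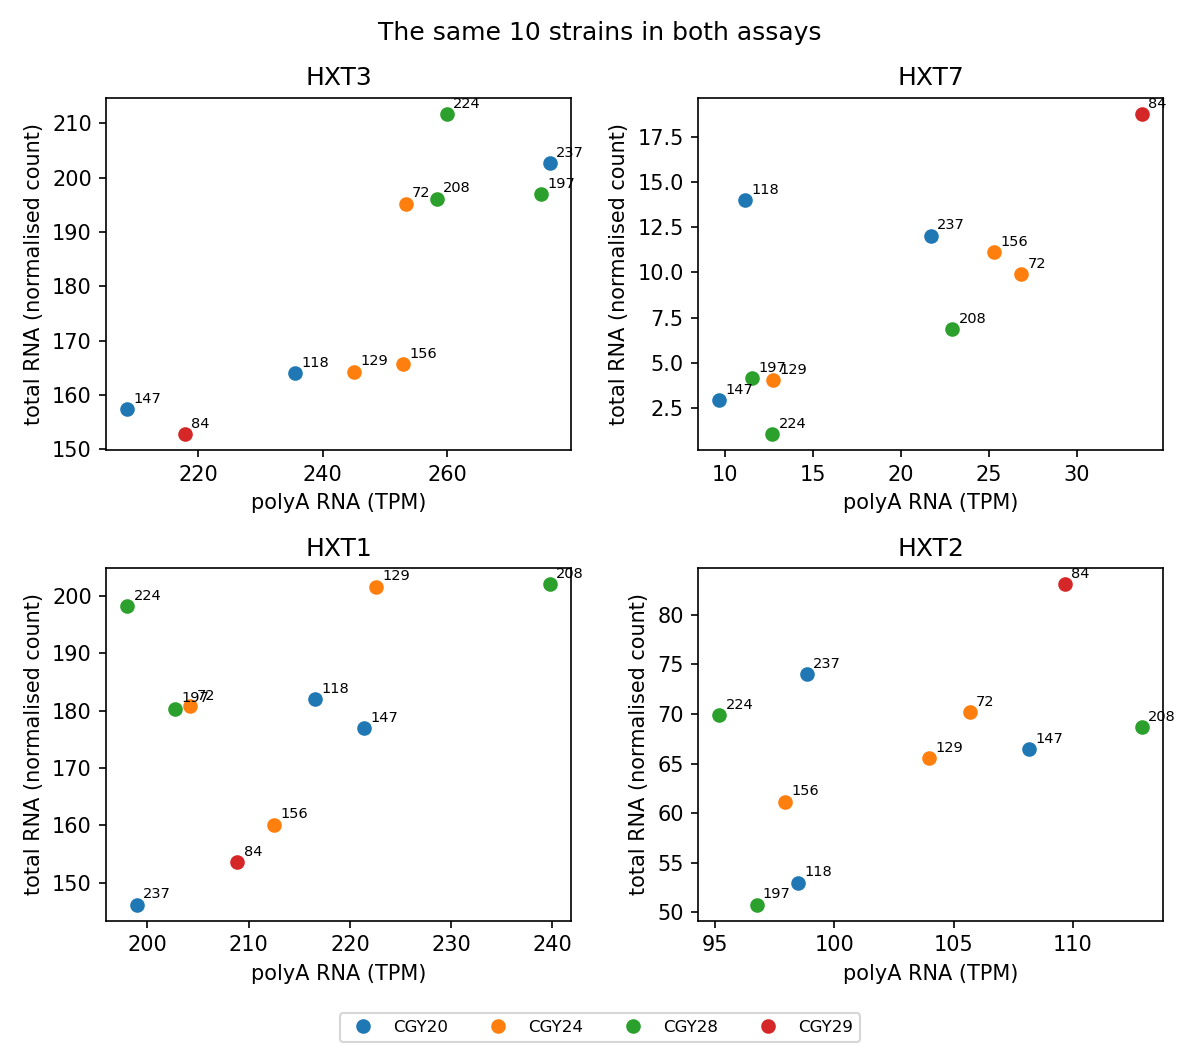
Each panel plots 1 gene in the 10 strains, polyA RNA (TPM) on the horizontal axis against total RNA (normalised count) on the vertical axis, with 1 point per strain, its rDNA repeats beside it and its series by colour. HXT3 shows the closest relation (r = 0.83), and the strain with 84 repeats stands at the top of HXT7 in both assays.

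The design compares strains by array length, and for these genes no slope on the number of repeats passed the test. Of the 8 members tested in polyA RNA and the 6 in total RNA, 0 had a limma adjusted p under 0.05, where 0% of 5542 genes in polyA RNA and 0.0249% of 4019 features in total RNA did. At an unadjusted p under 0.05 there was 1 of 8 members in polyA RNA, with 5.63% of all genes, and 2 of 6 in total RNA, with 4.68% of all features. HXT3 was the one whose estimate was positive and of that size in both assays. Its log2 change per 100 repeats was 0.14 ± 0.06 (SE, n = 10 strains, limma p = 0.035, adjusted p = 0.868) in polyA RNA and 0.20 ± 0.09 (limma p = 0.0402, adjusted p = 0.987) in total RNA. Leaving out each strain in turn gave 0.12 to 0.21 and 0.16 to 0.32.

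The other low-affinity transporter, HXT1, had estimates of -0.02 ± 0.06 and 0.02 ± 0.10 per 100 repeats on the log2 scale (SE, n = 10, polyA then total RNA), with signs that changed with the scaling. The 95% intervals were -0.14 to 0.10 and -0.18 to 0.21. Among the carriers of higher affinity, HXT2 gave -0.06 ± 0.06 and -0.04 ± 0.13, HXT7 -0.27 ± 0.35 and -0.81 ± 0.43, and in polyA RNA HXT4 gave -0.15 ± 0.24 and HXT6 0.28 ± 0.18. The sum of HXT6 and HXT7 gave -0.21 ± 0.28 in polyA RNA and -0.55 ± 0.29 in total RNA (limma p = 0.476 and 0.0692). With strain series in the model, the polyA estimates of HXT7 and HXT4 turned positive, to 0.46 and 0.33, and the total RNA estimates of HXT1 and HXT2 moved to -0.21 and 0.21, each with a changed sign. Single strains moved several of these estimates. Leaving out 1 strain in turn gave HXT7 -0.48 (without 237 repeats) to -0.03 (without 84) in polyA RNA and -1.34 (without 237) to -0.39 (without 224) in total RNA. In polyA RNA it gave HXT4 -0.34 (without 237) to -0.0032 (without 84) and HXT6 0.03 (without 72) to 0.46 (without 224). The sensor SNF3 gave 0.01 ± 0.10 in polyA RNA and 0.79 ± 0.37 in total RNA (limma p = 0.0399, adjusted p = 0.987), and RGT2 gave 0.10 ± 0.07 and -0.02 ± 0.19. The difference of the SNF3 slopes between assays, fitted with no term for the strain that both libraries share, was 0.77 ± 0.40 (limma p = 0.0685, adjusted p = 0.999). For HXT7 that difference was -0.53 ± 0.60, for RGT2 -0.12 ± 0.18, for HXT3 0.05 ± 0.11, for HXT1 0.03 ± 0.11 and for HXT2 0.02 ± 0.14, and no member of 6 passed, as no gene of 3662 did (0%).

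**Figure D4:**
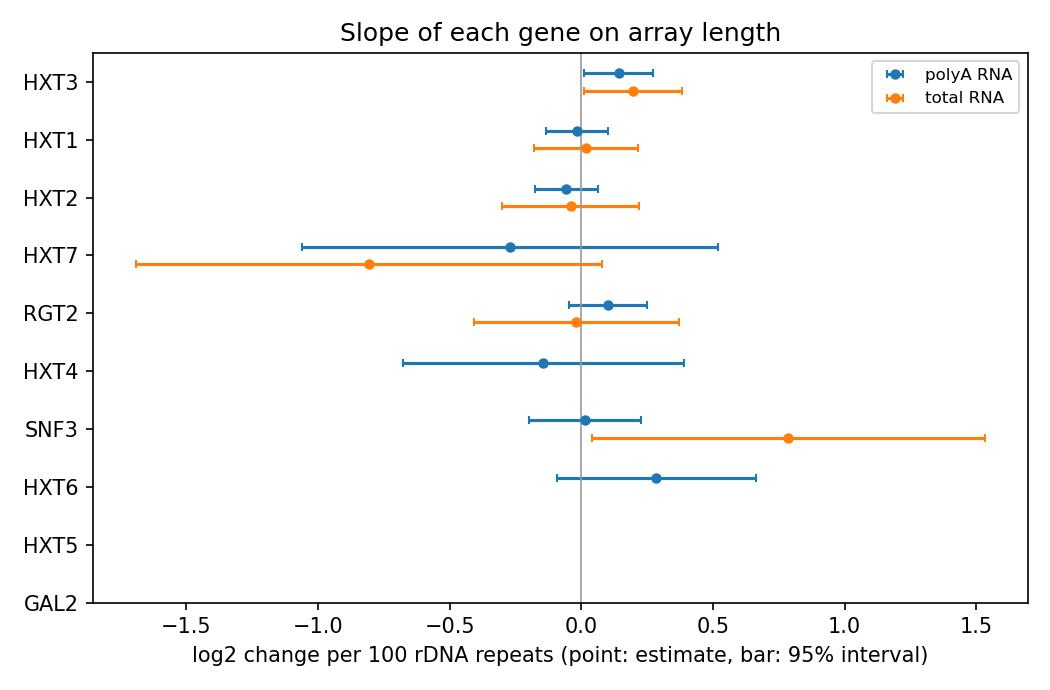
Points give the log2 change per 100 rDNA repeats of each gene, with 95% intervals, from 10 polyA RNA and 10 total RNA libraries. Only genes that passed each assay's filter have a point, and the HXT3 intervals lie just above 0 in both assays while HXT7 has the widest ones.

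The labels group strains by series name, and the members were compared between the 3 strains each of CGY20, CGY24 and CGY28. Array length is partly confounded with series, since all CGY28 strains are long. The slopes above carry no term for series, except where series is named as part of the model. The contrasts between series carry no term for array length. No member passed the adjusted limma test in any of the 3 contrasts of either assay. Over all genes the calls were 0.0361% (CGY24 minus CGY20), 0% (CGY28 minus CGY20) and 0.018% (CGY28 minus CGY24) in polyA RNA, and 0%, 0% and 0.0249% in total RNA. At an unadjusted p under 0.05 there was 1 of 8 members for CGY24 minus CGY20 in polyA RNA (2.2% of all genes), none for CGY28 minus CGY20 (7.69%) and none for CGY28 minus CGY24 (7.38%). In total RNA there was 1 of 6 (4.25% of all features), none (5.3%) and 1 of 6 (5.1%) in the same order. The contrasts share series, so each is given by its own values.

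HXT6 was at 4.16, 3.93 and 4.84 TPM in the CGY20 strains and at 1.41, 2.73 and 3.39 TPM in the CGY24 strains. Its log2 difference was -0.64 ± 0.23 (SE, 3 strains against 3, limma p = 0.0144, adjusted p = 0.999). When the CGY24 strain with 72 repeats was left out, it was -0.39. HXT7 had 0.59 ± 0.43 in the same contrast, and the sum of HXT6 and HXT7 had 0.37 ± 0.36. HXT4 gave 0.33 ± 0.33, HXT3 0.07 ± 0.09, SNF3 0.06 ± 0.15, RGT2 0.03 ± 0.11, and HXT1 and HXT2 both 0.01 ± 0.09. For CGY28 minus CGY20 in polyA RNA the values were HXT6 -0.32 ± 0.23, HXT7 0.16 ± 0.43, HXT3 0.15 ± 0.09, RGT2 0.06 ± 0.11, HXT4 0.05 ± 0.33, SNF3 0.02 ± 0.15, and HXT1 and HXT2 within 0.01 of 0. For CGY28 minus CGY24 they were HXT7 -0.43 ± 0.43, HXT6 0.32 ± 0.23, HXT4 -0.28 ± 0.33, HXT3 0.08 ± 0.09, SNF3 -0.04 ± 0.15, RGT2 0.03 ± 0.11, HXT2 -0.02 ± 0.09, and HXT1 within 0.01 of 0. The sum of HXT6 and HXT7 gave -0.32 ± 0.36 in that contrast.

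In total RNA the sensor SNF3 had 13.0, 10.8 and 13.0 normalised counts in the CGY20 strains, 3.60, 9.07 and 2.22 in the CGY24 strains and 5.18, 11.8 and 15.6 in the CGY28 strains. These values were 13, 11 and 14 reads in the CGY20 strains, 4, 9 and 2 in the CGY24 strains and 5, 12 and 15 in the CGY28 strains. The log2 difference CGY24 minus CGY20 was -1.31 ± 0.47 (SE, 3 against 3, limma p = 0.00896, adjusted p = 0.962). SNF3 in polyA RNA differed by 0.06 ± 0.15 in that contrast. For CGY28 minus CGY24, SNF3 gave 1.05 ± 0.47 (limma p = 0.034, adjusted p = 0.955), and for CGY28 minus CGY20 -0.27 ± 0.47. HXT7 in total RNA gave -0.07 ± 0.63 (CGY24 minus CGY20), -1.07 ± 0.63 (CGY28 minus CGY20) and -1.002 ± 0.63 (CGY28 minus CGY24). The sum of HXT6 and HXT7 gave -1.08 ± 0.38 for CGY28 minus CGY20 (limma p = 0.00833, adjusted p = 0.871), against 0.05 ± 0.36 in polyA RNA. In total RNA the sum gave -0.42 ± 0.38 for CGY24 minus CGY20 and -0.66 ± 0.38 for CGY28 minus CGY24. HXT3 in total RNA gave 0.01 ± 0.13, 0.21 ± 0.13 and 0.21 ± 0.13 in the order of contrasts used for HXT7, and HXT1 0.10 ± 0.13, 0.20 ± 0.13 and 0.10 ± 0.13. HXT2 gave 0.04 ± 0.18, -0.03 ± 0.18 and -0.07 ± 0.18, and RGT2 -0.19 ± 0.27, -0.15 ± 0.27 and 0.04 ± 0.27.

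The 2 libraries of low recovery stood inside the range of the other 10 for HXT1, HXT3, HXT4, HXT6, HXT7, GAL2 and SNF3. Of HXT2, HXT5 and RGT2, 1 of the 2 lay inside. HXT7 was at 19.4 TPM with 104 repeats and 16.8 TPM with 166 repeats, HXT3 at 250 and 255 TPM, and HXT1 at 199 and 240 TPM. Low minus normal recovery gave log2 differences from -0.15 ± 0.25 (HXT6) to 0.15 ± 0.30 (HXT4) (SE, 2 against 10 libraries). The others were HXT7 0.05 ± 0.43, HXT1 0.04 ± 0.08, HXT3 0.03 ± 0.09, HXT2 -0.03 ± 0.08, SNF3 -0.08 ± 0.13 and RGT2 -0.12 ± 0.10. No member of 8 passed the limma test (lowest adjusted p = 0.999), where 0.0181% of 5539 genes did. At an unadjusted p under 0.05 there were 0 members, and 2.8% of all genes.

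How the members varied together over the 10 strains was read for pairs chosen by role, with p adjusted over 44328 relations of a tested member with any tested gene, of which 0% passed. HXT1 with HXT2 gave r = 0.68 (permutation p = 0.0288, adjusted p = 0.521) and rho 0.62 (permutation p = 0.0606, adjusted p = 0.840). Without the strains with 208 and 224 repeats that r was 0.33, so it rested on those strains. The low-affinity pair HXT1 and HXT3 gave r = -0.36 (permutation p = 0.311, adjusted p = 0.931), rho -0.59 (permutation p = 0.0805, adjusted p = 0.868) and r = -0.69 without the same strains, while its sign turned under trimmed-mean scaling, at 0.10. HXT3 with HXT4 gave r = 0.33 (permutation p = 0.348) and rho 0.08 (permutation p = 0.837), and SNF3 with RGT2 gave r = 0.29 (permutation p = 0.410) and rho 0.12 (permutation p = 0.758). HXT3 with HXT7 gave r = 0.09 (permutation p = 0.793) and rho 0.08 (permutation p = 0.836), and HXT2 with HXT4 gave r = 0.01 (permutation p = 0.977) and rho 0.24 (permutation p = 0.514). The adjusted p-values of these 4 pairs were 0.951 or more. HXT5 with HXT7 gave r = -0.21, as a value only.

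Further relations of HXT7 were picked after the values were seen. HXT7 and HXT4 gave r = 0.87 over 10 strains (permutation p = 0.00121, adjusted p = 0.270), rho 0.83 (permutation p = 0.00467, adjusted p = 0.594) and r = 0.83 without the strains with 84 and 147 repeats. HXT7 and the sensor SNF3 gave r = 0.79 (permutation p = 0.0134, adjusted p = 0.436), rho 0.75 (permutation p = 0.0182, adjusted p = 0.728) and r = 0.71 without the strains with 147 and 224 repeats. HXT7 and HXT2 gave r = 0.37 (permutation p = 0.276, adjusted p = 0.911) and rho 0.37 (permutation p = 0.296, adjusted p = 0.943). Their r was -0.02 without the strains with 84 and 208 repeats. None passed the adjusted threshold, and 8.23% of all relations had an unadjusted p under 0.05. In total RNA the r of HXT7 was 0.40 with HXT4, which did not pass the filter there, 0.16 with HXT2 and -0.46 with SNF3. These are given as values, and the sign for SNF3 differed between the assays. The coding sequences of HXT4 and HXT7 are 81.7% identical and share no window of 50 bases.

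Genes of glucose signalling and use were taken as 6 lists by name: other hexose and maltose transporters, sensing and repression of HXT genes, the Snf1 kinase and its regulators, hexokinases, glucose-repressed genes of carbon use, and galactose genes. Over the 10 comparisons, 0 list genes rose and 0 fell at an adjusted limma p under 0.05. In the polyA slopes on array length, 0 of 3 tested of 14 other transporters, 0 of 11 sensing and repression genes, 0 of 11 tested of 13 Snf1 genes, 0 of 4 hexokinases, 0 of 11 tested of 17 carbon-use genes and 0 of 5 tested of 6 galactose genes passed. The median log2 slopes per 100 repeats of these lists were 0.13, -0.02, -0.06, -0.06, -0.02 and 0.06, beside a median of -0.02 over all genes. The lowest p-values belonged to SUC2, the secreted invertase, at 0.16 ± 0.07 per 100 repeats on the log2 scale (limma p = 0.0403, adjusted p = 0.868), IDP2 at -0.18 ± 0.10, GAL3 at 0.19 ± 0.10, GAL1 at 0.09 ± 0.10, HXK2 at 0.08 ± 0.05, HXK1 at -0.44 ± 0.25, MPH2 at 0.21 ± 0.13, MAL11 at 0.13 ± 0.10, RGT1 at 0.11 ± 0.08, GRR1 at -0.07 ± 0.08, ADR1 at -0.21 ± 0.15 and SIP2 at -0.09 ± 0.08.

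In total RNA the tested list genes numbered 0 other transporters, 10 sensing and repression genes, 9 Snf1 genes, 4 hexokinases, 3 carbon-use genes and 1 galactose gene. The median log2 slopes of the last 5 lists were 0.10, 0.07, -0.22, -0.03 and -0.03, beside -0.00090 over all features. The 2 lowest p-values of each belonged to TUP1 (0.12 ± 0.08) and YCK2 (0.18 ± 0.12), GLC7 (0.18 ± 0.13) and REG1 (-0.15 ± 0.14), HXK1 (-0.43 ± 0.25) and HXK2 (0.09 ± 0.07), and SUC2 (0.21 ± 0.17) and ALD4 (-0.11 ± 0.17), with GAL80 (-0.03 ± 0.15) alone in its list.

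The hexokinases, which phosphorylate glucose once it has entered, differed in level and in spread. HXK2, the main hexokinase of cells in glucose, was at 504 TPM (147 repeats) to 604 TPM (197 repeats). HXK1 and the glucokinase GLK1, both known to be repressed by glucose, were at 10.5 to 38.7 and 50.9 to 113 TPM, and the GLK1 paralog EMI2 was at 22.9 to 35.3 TPM. The strain with 147 repeats was lowest and the strain with 84 repeats highest for all of HXK1, GLK1 and EMI2 in polyA RNA, as for HXT7 and HXT4. In total RNA the strain with 147 repeats was again lowest for these 3 enzymes, at 6.84, 34.2 and 11.7 normalised counts, while their highest strains were those with 72, 84 and 208 repeats.

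Across the 10 strains HXT7 gave r = 0.84 with HXK1 (permutation p = 0.00112, adjusted p = 0.270) and rho 0.89 (permutation p = 0.0012, adjusted p = 0.552). With EMI2 it gave r = 0.82 (permutation p = 0.00111, adjusted p = 0.270) and rho 0.93 (permutation p = 0.00035, adjusted p = 0.552), and with GLK1 r = 0.72 (permutation p = 0.00492, adjusted p = 0.343) and rho 0.83 (permutation p = 0.00434, adjusted p = 0.594). Without the strains with 84 and 147 repeats the r values were 0.70, 0.88 and 0.68. With HXK2 it gave r = 0.07 (permutation p = 0.851) and rho 0.04 (permutation p = 0.920). In the total RNA libraries of the same strains, r of HXT7 was 0.53 with HXK1, 0.56 with EMI2 and 0.51 with GLK1, given as values. The transcription factor gene ADR1 was the only other list gene with an unadjusted p under 0.05 (r = 0.73, permutation p = 0.0108, adjusted p = 0.406, with rho 0.81 and permutation p = 0.00705), and its r was 0.46 without those strains. That makes 4 of the 45 tested list genes. Over the pooled relations of all tested members 8.23% were under that threshold, and the share for HXT7 alone is not given. The median r of HXT7 was 0.08 over the list genes and 0.0011 over all genes. These relations were picked after values were seen, and none passed the adjustment over 44328. The tested glucose-repressed genes of carbon use went both ways with HXT7. Their r was 0.56 for MDH2, 0.28 for CYB2, 0.26 for ALD4, 0.25 for ICL1, 0.14 for IDP2 and 0.08 for CAT2. It was 0.0019 for FOX2, -0.14 for ADH2, -0.22 for SUC2, -0.33 for ACS1 and -0.55 for PCK1.

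**Figure D5:**
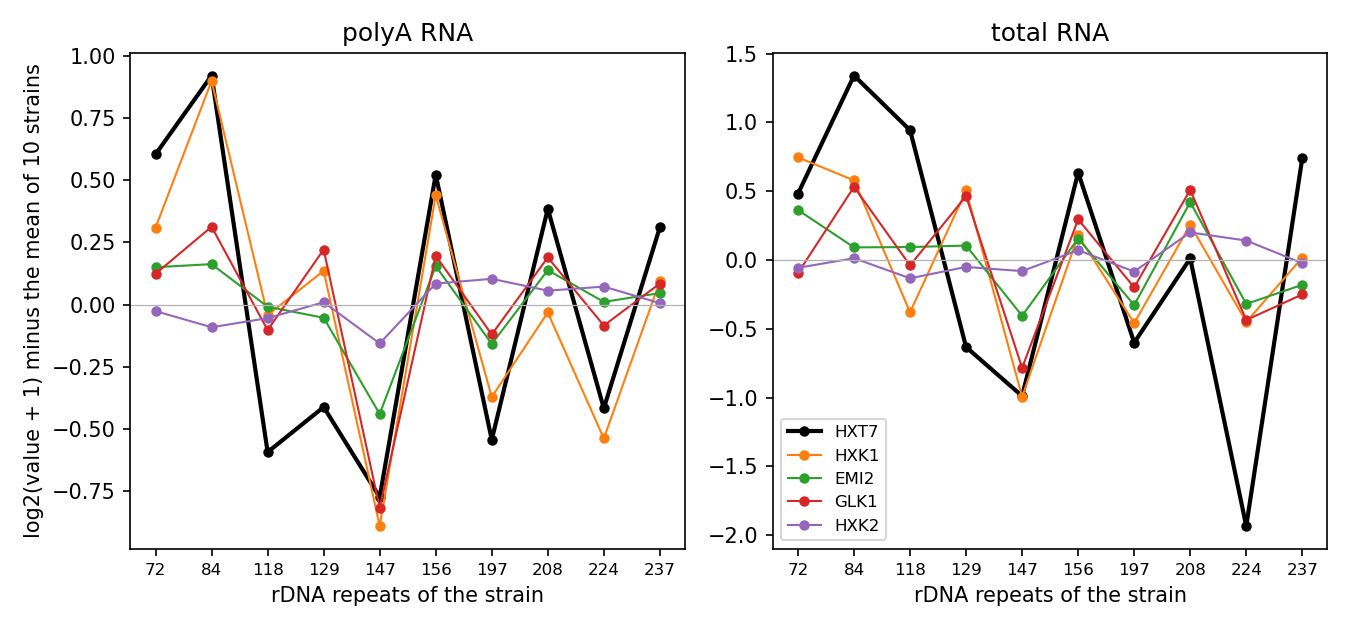
Lines give log2(value + 1) minus its mean over the 10 strains for HXT7 and 4 hexokinase genes, in polyA RNA (TPM, left) and total RNA (normalised counts, right), ordered by rDNA repeats with 1 library per point. HXT7, HXK1, EMI2 and GLK1 are low in the strain with 147 repeats in both panels, while HXK2 stays near 0.

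Between series, list genes of several groups had an unadjusted p under 0.05, and none passed the adjustment. Over all genes the share was 2.2% (CGY24 minus CGY20), 7.69% (CGY28 minus CGY20) and 7.38% (CGY28 minus CGY24) in polyA RNA. In total RNA it was 4.25%, 5.3% and 5.1% of features. In that order, hexokinases numbered 2, 1 and 1 of 4 in polyA RNA and 2, 0 and 1 of 4 in total RNA. Sensing and repression genes numbered 0, 1 and 0 of 11, then 1, 0 and 0 of 10. Snf1 genes numbered 1, 0 and 0 of 11, then 1, 1 and 0 of 9. The remaining lists had none. For CGY24 minus CGY20, HXK1 gave a log2 difference of 0.57 ± 0.24 in polyA RNA (SE, 3 strains against 3, limma p = 0.0401, adjusted p = 0.999) and 0.93 ± 0.34 in total RNA (limma p = 0.00965, adjusted p = 0.962). GLK1 gave 0.46 ± 0.20 (limma p = 0.0497, adjusted p = 0.999) and 0.58 ± 0.24 (limma p = 0.0242, adjusted p = 0.991). Without the strain with 147 repeats, a CGY20 strain, the polyA estimates were 0.27 for HXK1 and 0.19 for GLK1, and those of total RNA 0.66 and 0.37. For CGY28 minus CGY24, HXK1 gave -0.61 ± 0.24 in polyA RNA (limma p = 0.0316, adjusted p = 0.666) and -0.69 ± 0.34 in total RNA (limma p = 0.0477, adjusted p = 0.963). HXK2 gave 0.15 ± 0.07 for CGY28 minus CGY20 in polyA RNA (limma p = 0.0487, adjusted p = 0.642). Outside the hexokinases, ADR1, a transcription factor gene, gave 0.41 ± 0.18 in polyA RNA and 0.56 ± 0.26 in total RNA for CGY24 minus CGY20 (limma p = 0.0407 and 0.0414). RGT1, the repressor of HXT genes, gave 0.73 ± 0.31 in total RNA in that contrast (limma p = 0.0262, adjusted p = 0.991). For CGY28 minus CGY20, the corepressor gene TUP1 gave 0.19 ± 0.08 in polyA RNA (limma p = 0.035, adjusted p = 0.642), and REG1, a regulatory subunit of the Glc7 phosphatase, gave -0.47 ± 0.19 in total RNA (limma p = 0.017, adjusted p = 0.874). HXT7, by comparison, had the 0.59 ± 0.43 and -0.07 ± 0.63 given above.

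For each member tested in both assays, the genes most alike over the 10 strains were taken by the lower of their Pearson r in polyA and in total RNA, as a description. HXT3 was most like EHT1 (r = 0.81 and 0.78), an acyltransferase of ester synthesis, and PMT3 (0.88 and 0.78), a protein mannosyltransferase. HXT7 was most like CWP1 (0.77 and 0.79), a cell wall mannoprotein, and NRM1 (0.74 and 0.76), a corepressor of transcription at the end of G1 phase. HXT1 was most like APT1 (0.84 and 0.83), an adenine phosphoribosyltransferase, and DPM1 (0.74 and 0.89), which makes dolichol phosphate mannose. HXT2 was most like VTC1 (0.65 and 0.85), of the vacuolar polyphosphate complex, and CCW14 (0.71 and 0.65), a cell wall protein. SNF3 was most like IRC8 (0.84 and 0.78) and the stress transcription factor gene MSN4 (0.69 and 0.72). RGT2 was most like the amino acid permease gene AGP1 (0.78 and 0.79) and the nucleoporin gene NUP42 (0.63 and 0.54). The points of each correlation share a library, and these genes were selected as the highest of 3662.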

How the data were processed

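PolyA RNA values are TPM deposited by the authors, 1 table per library, made with Salmon 0.8.1 against sacCer3, per the submitters' processing notes. Total RNA values are a normalised read signal deposited by the authors. Those notes also name DESeq2 and bcl2fastq. Dividing each total RNA library by the value of 1 read gave whole numbers for 100% of values (tolerance 0.001), so these are counts divided by a size factor. Rows of the rDNA (45 features) were left out of tests and took 93.5% to 94.4% of reads. How reads shared by near-identical genes were divided is not given in the sources used here for total RNA.

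The members and gene lists were chosen with earlier results of these data known. The rule named all 10 members in every comparison, list genes past an adjusted p of 0.05 or else the 2 with the lowest p (here given for both slopes, with hexokinases also between series), and 2 genes most like each member. Tests used limma 3.58.1 (trend, robust) in R 4.3.3 on log2(value + 1), for 5542 genes of mean TPM of at least 1 and 4019 features passing edgeR 4.0.16 filterByExpr, adjusted by Benjamini-Hochberg over all of them. A fold change on this scale understates the change of low genes. Nothing states that strains came from separate cultures, so p-values measure only the spread between these libraries. Permutation tests used scipy 1.17.1 and numpy 2.4.6 with 100000 resamples. Alternatives were another pseudocount, no filter, other scalings, edgeR and DESeq2 1.42.0 on recovered reads, series as a covariate, strain as a block, and leaving out each library. Same-strain libraries of the 2 assays deviated together (correlation 0.14 to 0.52 in 10 of 10 pairs), and the pairing comes from the strain names. The fits and permutation test were tested on simulated data. Sequences and loci are from RefSeq's R64 genome.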

Additional observations from a re-analysis of the deposited data

Results flagged for a closer look

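Of 20 series of 10 libraries (10 genes in each of 2 assays), 1 held a library that stood apart from the others by Dixon's criterion, which chance alone gives in about 1 of 20. GAL2, the galactose permease, had its highest total RNA value, 0.981 normalised counts, in the strain with 208 repeats. That value is 1 read, and GAL2 had 0 reads in the other 9 libraries. In polyA RNA the same strain was also highest for GAL2, at 0.628 TPM.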

How the results depend on the processing

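In the alternatives tried, 0 members and 0 of the named list genes came to pass an adjusted p of 0.05 in any comparison, and the reported values kept their sign in 542 of 563 cases with another setting and in 763 of 840 with 1 library left out. The agreement of the assays was counted here by Pearson's r, so the rank correlation of HXT3, which passed, lies outside this count. The cause of the changes below was not tested. Total RNA held at most 25 reads per library for RGT2, SNF3, HXT7, HXT6 and HXT4. The deposited TPM give no depth.

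Signs turned as follows, on the log2 scale per 100 repeats or per contrast. Trimmed-mean scaling of TPM gave 0.0051 for the polyA slope of HXT1, -0.015 for HXT1 and -0.010 for HXT2 in CGY24 minus CGY20, 0.032 for HXT2 in CGY28 minus CGY20, and 0.057 for HXT1, 0.042 for HXT2 and 0.0066 for SNF3 in CGY28 minus CGY24. The same scaling gave r = 0.097 for HXT1 with HXT3 and r = -0.024 for HXT2 with HXT4, which was -0.035 without the strain with 208 repeats. Adding the 2 low recovery libraries gave 0.0054 for the polyA slope of HXT1, and log2 repeats gave -0.0077 for that of SNF3. Library size outside the rDNA gave -0.011 for the total RNA slope of HXT1. With strain series as a covariate the polyA slopes were 0.46 for HXT7, 0.33 for HXT4, 0.23 for HXK1 and 0.023 for SIP2, and the total RNA slopes were -0.21 for HXT1, 0.21 for HXT2, 0.13 for HXK1 and 0.16 for REG1.

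Leaving out 1 library at a time turned the sign of further small estimates. For CGY24 minus CGY20 in polyA RNA these ranges were HXT1 -0.040 to 0.037, HXT2 -0.013 to 0.054, HXT3 -0.027 to 0.17, HXT4 -0.035 to 0.61, RGT2 -0.048 to 0.083, SNF3 -0.017 to 0.19. For CGY28 minus CGY20 in polyA RNA these ranges were HXT1 -0.081 to 0.056, HXT2 -0.084 to 0.038, HXT4 -0.31 to 0.33, HXT7 -0.13 to 0.49, RGT2 -0.018 to 0.11, SNF3 -0.059 to 0.15. For CGY28 minus CGY24 in polyA RNA these ranges were HXT1 -0.088 to 0.050, HXT2 -0.094 to 0.028, RGT2 -0.0096 to 0.074, SNF3 -0.095 to 0.049. For low minus normal recovery these ranges were HXT1 -0.095 to 0.17, HXT2 -0.12 to 0.049, HXT4 -0.050 to 0.35, HXT7 -0.045 to 0.15, RGT2 -0.28 to 0.047, SNF3 -0.18 to 0.012. For the polyA slope these ranges were HXT1 -0.055 to 0.014, SNF3 -0.066 to 0.077. For the slope difference these ranges were HXT1 -0.036 to 0.12, HXT2 -0.065 to 0.10. For CGY24 minus CGY20 in total RNA these ranges were HXT2 -0.097 to 0.14, HXT3 -0.073 to 0.12, HXT7 -0.68 to 0.33. For CGY28 minus CGY20 in total RNA these ranges were HXT2 -0.17 to 0.11, SNF3 -0.57 to 0.14. For CGY28 minus CGY24 in total RNA these ranges were HXT2 -0.15 to 0.079, RGT2 -0.083 to 0.13. For the total RNA slope these ranges were ALD4 -0.26 to 0.030, GAL80 -0.10 to 0.11, HXT1 -0.047 to 0.13, HXT2 -0.12 to 0.062, RGT2 -0.12 to 0.035.

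Counts of genes called over the whole genome moved too, none of them a member. The total RNA slope called 1 feature with limma, 3 with edgeR, 2 with DESeq2, 2 with a pseudocount of 10, 4 with no filter and 0 with series as a covariate. With no filter the counts were 3 for CGY24 minus CGY20 and 5 for CGY28 minus CGY24 in total RNA, 1 for CGY28 minus CGY20 in polyA RNA and 2 for low minus normal recovery. A pseudocount of 0.1 gave 1 for CGY28 minus CGY20 in polyA RNA. Without the strain with 208 repeats, 13 genes instead of 42 passed the agreement of the assays. With 1 library left out the counts were CGY28 minus CGY20 in polyA RNA 0 to 37 (all libraries 0), CGY28 minus CGY24 in polyA RNA 1 to 4 (all libraries 1), low minus normal recovery 0 to 1 (all libraries 1), the polyA slope 0 to 1 (all libraries 0), the slope difference 0 to 1 (all libraries 0), CGY24 minus CGY20 in total RNA 0 to 2 (all libraries 0), CGY28 minus CGY20 in total RNA 0 to 2 (all libraries 0), CGY28 minus CGY24 in total RNA 0 to 5 (all libraries 1), the total RNA slope 0 to 2 (all libraries 1). The 37 came without the strain with 197 repeats.

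With strain as a replicate block, the slope difference between assays called 0 genes, as without the block, and it was the only comparison fitted with the block. Its value for SNF3 stayed 0.77 (limma adjusted p = 0.998).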
